A study of Mus musculus with 2 samples.

Results

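The T cell receptor complex and T factor genes examined were 10 named genes of the 22020 gene symbols in the deposited table: the CD3 signalling chains Cd3d, Cd3e, Cd3g and Cd247, the kinases Lck and Zap70, the adaptor Lat, the transcription factors Gata3 and Tcf7, and the coreceptor Cd4. They were chosen by name, and each was represented by its RefSeq transcript with the highest mean RPKM (reads divided by the length of the transcript and by the reads of its library). RNA was sequenced from LSK cells, blood stem and multipotent progenitor cells sorted as lineage-negative and positive for c-Kit and Sca-1, of 8-week-old C57BL/6 mice. One group was Utx/p53 DKO, in which Utx (Kdm6a, a histone H3 lysine 27 demethylase gene) and p53 (Trp53) were both deleted, and the other was p53 KO, in which p53 alone was deleted, so that both groups lacked p53. There was 1 library per group, with 19926294 reads in Utx/p53 DKO and 17088105 reads in p53 KO. The labels used here give neither the deleting Cre or exons, nor the sex or number of mice behind a library, nor the antibodies of the lineage mix. No difference has a replicate check, no test was made, and intervals cover counting error only.

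On a T cell, the antigen receptor has no signalling domain of its own and works through the CD3 gamma, delta and epsilon chains and the zeta chain encoded by Cd247. Their tyrosine motifs are phosphorylated by Lck, which the coreceptor CD4 brings to the receptor, and then bind the kinase ZAP-70, which phosphorylates the adaptor LAT. GATA3 and TCF-1 (the product of Tcf7) act earlier, in committing thymic progenitors to the T lineage. LSK cells are multipotent and stand before that commitment. Several of these genes are also used outside T cells: CD247, LCK, ZAP-70 and LAT in natural killer (NK) cells, LAT in mast cells and platelets, and CD4 by some dendritic cells of the mouse. Mice without p53 are known for thymic T cell lymphoma, and UTX is known as a tumour suppressor in human T cell leukaemia.

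Cd3g, Cd3d and Cd3e lie next to each other on chromosome 9 in the GRCm38.p6 RefSeq annotation. Their promoters are shown because 2 of them had the highest ratios of all members, and that of Lat because it had the lowest log2(RPKM + 1) difference. Each runs from 250 bases before to 50 bases after the annotated start, 5′ to 3′ on the strand of the gene, in build GRCm38.p6 (RefSeq), which is not the build mm9 named for these files. Capitals mark hexamers read on both strands. GATA factors were searched as AGATAA or, as the other form, TGATAA. RUNX factors were searched as TGTGGT and ETS factors were searched as AGGAAG. E-boxes were searched as CAGCTG or, as the other form, CAGGTG. The TCF and LEF factors were searched as CTTTGA or, as the other form, CTTTGT. The last hexamer, for the box near many start sites, was TATAAA.
Cd3g promoter, chr9:44980382-44980681, minus strand: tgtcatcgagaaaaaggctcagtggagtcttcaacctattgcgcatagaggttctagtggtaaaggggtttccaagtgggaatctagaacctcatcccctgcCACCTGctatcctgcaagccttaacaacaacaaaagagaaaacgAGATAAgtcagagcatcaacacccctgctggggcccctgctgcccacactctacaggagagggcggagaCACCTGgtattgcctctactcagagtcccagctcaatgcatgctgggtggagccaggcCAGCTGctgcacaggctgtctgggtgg
Cd3d promoter, chr9:44981536-44981835, plus strand: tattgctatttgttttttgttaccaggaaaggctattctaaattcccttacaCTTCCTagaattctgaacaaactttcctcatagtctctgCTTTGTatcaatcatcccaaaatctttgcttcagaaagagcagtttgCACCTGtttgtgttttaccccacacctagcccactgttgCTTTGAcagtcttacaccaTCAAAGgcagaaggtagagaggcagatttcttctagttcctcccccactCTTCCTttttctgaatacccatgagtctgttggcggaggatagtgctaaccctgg
Cd3e promoter, chr9:45009562-45009861, minus strand: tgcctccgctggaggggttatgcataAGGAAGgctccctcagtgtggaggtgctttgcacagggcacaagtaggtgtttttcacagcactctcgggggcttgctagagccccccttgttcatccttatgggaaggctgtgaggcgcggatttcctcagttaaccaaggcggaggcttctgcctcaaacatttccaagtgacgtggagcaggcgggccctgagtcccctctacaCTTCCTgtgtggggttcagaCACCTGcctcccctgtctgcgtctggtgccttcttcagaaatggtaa
Lat promoter, chr7:126369519-126369818, minus strand: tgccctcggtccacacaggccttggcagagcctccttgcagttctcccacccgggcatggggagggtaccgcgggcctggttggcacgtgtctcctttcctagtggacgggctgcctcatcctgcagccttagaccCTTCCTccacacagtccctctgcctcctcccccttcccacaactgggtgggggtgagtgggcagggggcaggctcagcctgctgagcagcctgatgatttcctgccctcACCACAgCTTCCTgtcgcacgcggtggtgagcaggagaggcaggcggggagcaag

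The RefSeq promoter table gave 13 promoters for 9 of the 10 members, and none was used for Cd4. CAGGTG was found in 9 of the 13, against 20.2% of all 32851 promoters, and AGGAAG was found in 8 of the 13, against 35.4% of all promoters. Some genes have more than 1 window, and these windows belonged to 7 genes for CAGGTG and 6 genes for AGGAAG. The hexamer AGATAA was found in 1 of the 13, that of Cd3g, and in 11.2% of all promoters, and TGATAA in 0 of the 13 and in 9.05% of all. No matches overlapped each other in the 13 windows. The Cd3d window was poor in G and C (42.3%) with 1 CpG, whereas that of Cd3g had 54% and 4 CpG, that of Cd3e 56.7% and 8 CpG, and that of Lat 65.7% and 10 CpG. The median promoter had 52.7% and 7 CpG. These matches describe letters in a window and are not evidence of binding.

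The targeted gene was checked first. Kdm6a had 1.26 RPKM (132 reads) in the Utx/p53 DKO library and 5.32 RPKM (479 reads) in the p53 KO library, a ratio of 0.236 (95% interval 0.193 to 0.287). Trp53, deleted in both, still gave 12.9 RPKM in Utx/p53 DKO and 19.4 RPKM in p53 KO, and the labels do not say which exons remain. Of the genes of the sort, Kit was lower, at 16 RPKM in Utx/p53 DKO against 64.2 RPKM in p53 KO, and Ly6a, which encodes Sca-1, stood at 281 and 255 RPKM. Cd34, kept in the same list, was lower too, at 49.1 RPKM in Utx/p53 DKO against 348 RPKM in p53 KO. Granulocyte marker genes took a far larger part of the Utx/p53 DKO library, with a summed level over 9 genes of 40310 RPKM, against 4048 RPKM in p53 KO. Most of both sums came from Elane (26714 RPKM in Utx/p53 DKO and 1649 RPKM in p53 KO) and Mpo (6386 and 876 RPKM). Values were higher in Utx/p53 DKO for 8 of the 9, and Ltf was lower, at 5.42 RPKM against 32.9 RPKM in p53 KO. Genes averaging 1 RPKM or more over the 2 libraries are called measured here, and over these 11356 the median log2(RPKM + 1) difference, Utx/p53 DKO minus p53 KO, was -0.24. That median was 0.28 with the constants of gfold, the authors' program, and -0.55 with equal RPKM totals.

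All 10 members were measured, and they did not move as 1 block. On the log2(RPKM + 1) scale, 2 were at least 2-fold higher in Utx/p53 DKO (Cd3d and Cd3g), 3 were at least 2-fold lower (Lat, Gata3 and Cd4) and 5 lay within 2-fold. Among all measured genes the same rule was passed by 6.6% as higher and by 13.5% as lower, and so by 20.1% in either direction. The median difference of the members was 0.0001. With so few members these counts describe the 10 genes alone. Cd4 reached the mean of 1 RPKM only through the p53 KO library, while the other 9 members had at least 1 RPKM in both.

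**Figure D1:**
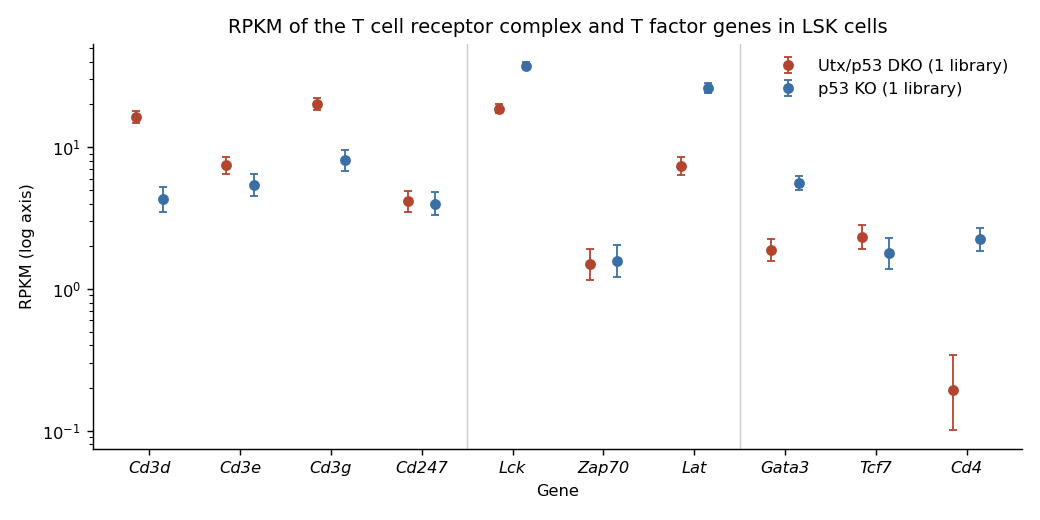
RPKM (log axis) of each member in the Utx/p53 DKO library (red, left) and the p53 KO library (blue, right), 1 library each; bars are exact 95% Poisson intervals of the reads and cover counting error only. Cd3d and Cd3g stand higher in Utx/p53 DKO, Lck, Lat, Gata3 and Cd4 stand lower, and the intervals of Cd3e, Cd247, Zap70 and Tcf7 meet or nearly meet.

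Of the CD3 chain genes, Cd3d and Cd3g were higher in Utx/p53 DKO, while Cd3e and Cd247 lay within 2-fold and the sign of Cd247 turned with equal RPKM totals. Cd3d, the delta chain, had 16.2 RPKM (430 reads) in Utx/p53 DKO and 4.31 RPKM (98 reads) in p53 KO, a ratio of 3.76 (95% interval 3.02 to 4.74). Its log2(RPKM + 1) difference of 1.70 was higher than that of 97.1% of measured genes. Cd3g, the gamma chain, had 20.2 RPKM (411 reads) in Utx/p53 DKO and 8.07 RPKM (141 reads) in p53 KO, a ratio of 2.50 (95% interval 2.06 to 3.05). Both intervals lay above a ratio of 2. Cd3g did not pass the 2-fold rule with equal RPKM totals (0.87) or a pseudocount of 5 (0.95), where Cd3d still passed it.

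Cd3e, the epsilon chain that pairs with either of those, had 7.48 RPKM (214 reads) in Utx/p53 DKO and 5.42 RPKM (133 reads) in p53 KO. Its ratio of 1.38 (95% interval 1.11 to 1.73) was below the size rule. Cd247, the zeta chain, had 4.17 RPKM (140 reads) in Utx/p53 DKO and 3.99 RPKM (115 reads) in p53 KO, a ratio of 1.04 (95% interval 0.81 to 1.35). The interval of Cd247 spans 1, so a difference was not detectable at this depth on the RPKM scale. Cd247 was listed with 5 transcripts, of which the other 4 had 0.832 to 1.85 RPKM in Utx/p53 DKO and 0.626 to 1.12 RPKM in p53 KO. All 5 had higher values in Utx/p53 DKO, but they share exons and are not independent. Cd247 also overlaps Pou2f1 in the annotation, which had 2.97 RPKM in Utx/p53 DKO and 5.27 RPKM in p53 KO, so reads in the overlap cannot be assigned without strand.

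Within a library the proportions of the CD3 chains do not depend on the scaling between libraries. Cd3d made up 33.8% of the summed RPKM of the 4 chains in Utx/p53 DKO and 19.8% in p53 KO. Cd3g made up 42% in Utx/p53 DKO and 37% in p53 KO. The shares of Cd3e (15.6% in Utx/p53 DKO and 24.9% in p53 KO) and of Cd247 (8.68% and 18.3%) were smaller in Utx/p53 DKO. Cd3d stood at 2.17 times the level of Cd3e in Utx/p53 DKO and at 0.796 times in p53 KO, and this ratio differed 2.73-fold between the libraries (95% interval 1.98 to 3.76). The ratio of Cd3g to Cd3e differed 1.81-fold (95% interval 1.34 to 2.44), whereas that of Cd247 to Cd3e did so by a factor of 0.757 with an interval that spans 1 (0.538 to 1.07). Per length, the level of Cd3d was thus above that of Cd3e in Utx/p53 DKO and below it in p53 KO, and that of Cd3g was above it in both.

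**Figure D2:**
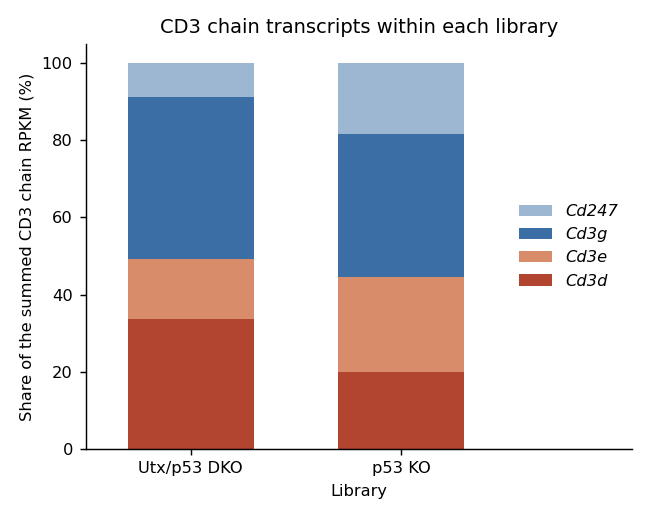
Share (%) of the summed RPKM of the 4 CD3 chain genes in the Utx/p53 DKO library (left) and the p53 KO library (right). Cd3d takes 33.8% in Utx/p53 DKO and 19.8% in p53 KO, and Cd247 takes 8.68% and 18.3%.

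The genes on either side of the 3 clustered CD3 genes did not share the higher values. Ube4a, a ubiquitin ligase gene next to Cd3g, had 5.93 RPKM in Utx/p53 DKO and 6.26 RPKM in p53 KO. Mpzl2, next to Cd3e, was near the limit of detection, at 0.0312 RPKM in Utx/p53 DKO and 0.455 RPKM in p53 KO.

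Lat and Lck stood below their p53 KO levels, and Zap70 was close to its own, with a sign that depended on the scaling. Lat, whose product links the activated receptor to downstream enzymes, had 7.40 RPKM (182 reads) in Utx/p53 DKO and 26 RPKM (549 reads) in p53 KO. It was 3.52-fold lower (95% interval 2.97 to 4.18), and its log2 difference of -1.69 was among the lowest 3.45% of measured genes. Lck, the kinase that starts the cascade, had 18.6 RPKM (770 reads) in Utx/p53 DKO and 37.5 RPKM (1328 reads) in p53 KO. It was 2.01-fold lower (95% interval 1.84 to 2.20) in RPKM, and with a log2(RPKM + 1) difference of -0.97 it lay just inside the 2-fold rule.

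Lck has a pair of annotated promoters and was listed with 3 transcripts, which had 18.2 to 18.7 RPKM in Utx/p53 DKO and 36.6 to 37.5 RPKM in p53 KO. These transcripts have most exons in common, and the table does not separate the promoters. Zap70, the kinase that binds the phosphorylated chains, was low in both, at 1.496 RPKM (65 reads) in Utx/p53 DKO and 1.58 RPKM (59 reads) in p53 KO, a ratio of 0.945 (95% interval 0.654 to 1.37). No difference in Zap70 was detectable at this depth. Relative to Lck, Lat was 1.75-fold lower in Utx/p53 DKO (95% interval 1.44 to 2.13) and Zap70 was 1.90-fold higher (95% interval 1.30 to 2.78). The 3 genes therefore did not share a common factor between the libraries.

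Of the transcription factors and the coreceptor, Gata3 and Cd4 were lower and Tcf7 was not. Gata3 had 1.89 RPKM (121 reads) in Utx/p53 DKO and 5.62 RPKM (309 reads) in p53 KO, 2.98-fold lower (95% interval 2.41 to 3.71). Tcf7 had 2.32 RPKM (103 reads) in Utx/p53 DKO and 1.79 RPKM (68 reads) in p53 KO, a ratio of 1.30 with an interval that spans 1 (0.947 to 1.79). The ratio of Gata3 to Tcf7 was 0.813 in Utx/p53 DKO and 3.14 in p53 KO, so it was 3.87-fold lower (95% interval 2.62 to 5.71) whatever the scaling. The interval covers counting error only, and the ratio is uncertain because Tcf7 overlaps the far more abundant Skp1, described below.

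Cd4, the coreceptor of helper T cells, was close to undetected in the Utx/p53 DKO library, with 0.195 RPKM (12 reads), against 2.25 RPKM (119 reads) in p53 KO. In RPKM it was 11.6-fold lower (95% interval 6.38 to 23), the ratio farthest from 1 among the members, while its log2(RPKM + 1) difference of -1.44 understates this because the value is low. Gata3 overlaps the long noncoding gene 4930412O13Rik, which had 0.0497 RPKM in Utx/p53 DKO and 0.029 RPKM in p53 KO. Tcf7 overlaps the annotated span of Skp1, an abundant gene listed as Skp1a at 180 RPKM in Utx/p53 DKO and 331 RPKM in p53 KO, and is uncertain for that reason. Lag3, the neighbour of Cd4, was at 0.301 RPKM in Utx/p53 DKO and 0.321 RPKM in p53 KO.

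**Figure D3:**
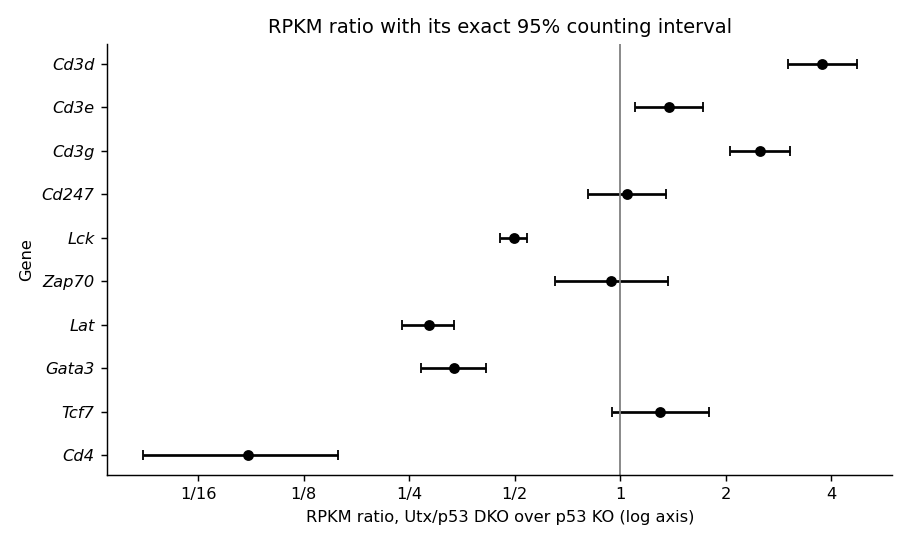
RPKM ratio of Utx/p53 DKO over p53 KO (log axis) for each member, with its exact 95% interval from the reads (counting error only); the line marks a ratio of 1. Cd3d (3.76) and Cd3g (2.50) lie to the right, Lck (0.497), Gata3 (0.336), Lat (0.284) and Cd4 (0.0865) to the left, and the intervals of Cd247, Zap70 and Tcf7 cross the line.

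The order of the members by RPKM, a level per length, differed between the libraries. In Utx/p53 DKO it was Cd3g, Lck, Cd3d, Cd3e, Lat, Cd247, Tcf7, Gata3, Zap70 and Cd4. There the 95% counting intervals of Cd3g and Lck, of Lck and Cd3d, of Cd3e and Lat, of Tcf7 and Gata3, and of Gata3 and Zap70 overlapped, so those neighbours could not be ordered. In p53 KO it was Lck, Lat, Cd3g, Gata3, Cd3e, Cd3d, Cd247, Cd4, Tcf7 and Zap70. There the overlapping neighbours were Gata3 and Cd3e, Cd3e and Cd3d, Cd3d and Cd247, Cd4 and Tcf7, and Tcf7 and Zap70. Lck and Lat thus led the list in p53 KO by a clear margin. In Utx/p53 DKO Cd3g and Cd3d stood beside Lck and above Lat, Cd3e stood beside Lat and below Lck, and Cd247 stood below both. Cd3d lay above 68.4% of measured genes in Utx/p53 DKO and above 27% in p53 KO, while Lat lay above 48.4% and 76%, and these ranks do not depend on scaling.

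The scaling between the libraries decided the sign of some members. Cd3d, Cd3g and Cd3e were above 0 and Lck, Lat, Gata3 and Cd4 below 0 under all settings tried. Tcf7 was not below 0 under any, but it ranged from 0.0014 with equal RPKM totals to 0.70 with the gfold constants. Its counting interval also spans 1, so Tcf7 has no clear direction. Cd3d ranged from 1.19 to 2.27, Cd3g from 0.87 to 1.801, and Cd3e from 0.076 to 0.94 on the log2 scale. Lat ranged from -2.01 to -1.14, Lck from -1.32 to -0.39, Gata3 from -1.53 to -0.63 and Cd4 from -2.996 to -0.48. Cd247 ranged from -0.24 with equal RPKM totals to 0.55 with the gfold constants, and Zap70 from -0.26 to 0.34 under the same settings, so neither has a direction. The constants raise the log2 RPKM ratio of every gene by 0.60, and the log2(RPKM + 1) difference by less where a gene is low, so that Cd4 stood at -1.33 with them. With them 2 members, Cd3d and Cd3g, passed the 2-fold rule as higher (16.5% of all measured genes did) and 2, Lat and Cd4, passed it as lower (6.27% of all). Gata3 no longer passed with the constants (-0.78) or after centring on the all-gene median (-0.96).

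In the authors' deposited table the GFOLD value, a log2 fold change shrunk for counting error, was above 0 for 5 members, below 0 for 4 and 0 for Zap70. It was above 0 for 54.5% and below 0 for 22.9% of all measured genes. The GFOLD values in the authors' deposited table were 2.14 for Cd3d, 1.60 for Cd3g, 0.70 for Cd3e, 0.46 for Tcf7 and 0.24 for Cd247. In the authors' deposited table they were -0.25 for Lck, -0.61 for Gata3, -0.93 for Lat and -1.88 for Cd4. The empirical false discovery rate in the authors' deposited table was 1 for every transcript, as there were no replicates.

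**Figure D4:**
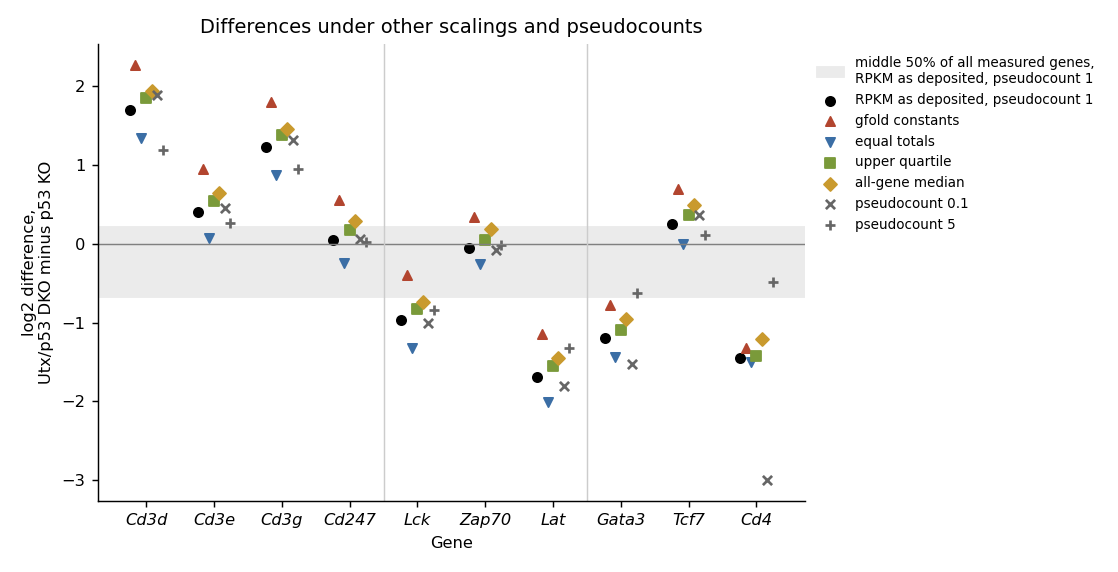
Log2 difference (Utx/p53 DKO minus p53 KO) of each member under the RPKM as deposited, other scalings and other pseudocounts; the grey band holds the middle 50% of all measured genes on the scale of the black points. Cd3d (1.19 to 2.27) and Lat (-2.01 to -1.14) keep their sides, whereas Cd247 and Zap70 fall on both sides of 0.

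Most other genes of the receptor pathway lay within 2-fold. Of 38 signalling partners, 37 were found and 33 measured, of which the 2-fold rule called 0 higher and 4 lower, with 29 in between (median -0.30, against -0.24 for all genes). These counts stand beside 6.6% of all measured genes called higher and 13.5% called lower, and 11 of the 37 had a higher value in Utx/p53 DKO. The lower genes were Pag1, an adaptor that recruits the inhibitory kinase Csk (1.08 RPKM in Utx/p53 DKO and 4.86 RPKM in p53 KO), Fyn, a Src kinase like Lck (3.26 and 10.2 RPKM), Prkcq, the protein kinase C theta gene (2.48 and 7.47 RPKM), and Plcg1, the phospholipase C gamma gene that LAT recruits (0.362 and 2.15 RPKM). Within 2-fold by the rule were Csk (17.4 RPKM in Utx/p53 DKO and 33.9 RPKM in p53 KO) and Txk, a Tec family kinase (2.76 and 0.908 RPKM). Lcp2, the SLP-76 adaptor that works with LAT, had 39.5 RPKM in Utx/p53 DKO and 22.1 RPKM in p53 KO.

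Surface genes of T cells and their progenitors were spread widely. Of 20 such genes 14 were measured, of which the 2-fold rule called 1 higher and 6 lower, with 7 in between (median -0.40). Among all measured genes 6.6% were called higher and 13.5% lower (median -0.24). The higher gene was Cd28, the costimulatory receptor, at 38.9 RPKM (3342 reads) in Utx/p53 DKO and 8.51 RPKM (628 reads) in p53 KO, a ratio of 4.56 (95% interval 4.19 to 4.98). Among the lower ones were Cd27 (13.8 RPKM in Utx/p53 DKO and 110.0 RPKM in p53 KO), the egress receptor gene S1pr1 (0.348 and 7.36 RPKM), the chemokine receptor gene Ccr7 (0.61 and 7.97 RPKM), the interleukin 7 receptor gene Il7r (4.35 and 20.8 RPKM) and Cd96 (1.63 and 7.62 RPKM). Under 1 RPKM in both libraries were Cd8b1, Pdcd1, Il2ra and Ptcra, the last encoding the pre-T cell receptor alpha chain.

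T lineage transcription factors went both ways. Of 22 genes 17 were measured, of which the 2-fold rule called 3 higher and 3 lower, with 11 in between (median -0.63). Of all measured genes it called 6.6% higher and 13.5% lower (median -0.24). Higher were Id2, an inhibitor of E proteins that innate lymphocytes need (54.1 RPKM in Utx/p53 DKO and 20.2 RPKM in p53 KO), Runx1 (20.8 and 8.57 RPKM) and Zbtb7b (2.11 and 0.46 RPKM). Lower were Id3 (2.11 RPKM in Utx/p53 DKO and 17.9 RPKM in p53 KO), the chromatin organiser gene Satb1 (5.12 and 19.6 RPKM) and Tox (3.68 and 14.1 RPKM). Bcl11b, which fixes the T cell fate, was low, at 1.58 RPKM in Utx/p53 DKO and 1.101 RPKM in p53 KO.

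Markers of mature T cells differed widely in level. Of 11 such markers 7 were measured, of which Cd3d, Cd3g and Cd28 passed the 2-fold rule as higher and 0 as lower. Of all measured genes, 6.6% passed it as higher and 13.5% as lower. A higher value in Utx/p53 DKO was seen for 6 of the 11. The list holds the members Cd3d, Cd3e and Cd3g and leaves out the others, among them Lck, Lat, Gata3 and Cd4, which stood lower. The summed level of the 11 was 87.1 RPKM in Utx/p53 DKO and 33.8 RPKM in p53 KO. Most of both sums came from Cd3d, Cd3e and Cd3g together (43.9 RPKM in Utx/p53 DKO and 17.8 RPKM in p53 KO) and from Cd28 (38.9 and 8.51 RPKM). Cd8a had 0.405 RPKM (25 reads) in Utx/p53 DKO and 1.08 RPKM (57 reads) in p53 KO, Cd8b1 had 0.0354 and 0.537 RPKM, and Cd5 had 0.606 and 1.87 RPKM. Trat1, an adaptor of the receptor, had 0 reads in Utx/p53 DKO, where 3 reads would be 0.22 RPKM, and 15 reads (1.28 RPKM) in p53 KO. It was at least 5.83-fold lower with the floor of 3 reads in that library, and 4.18-fold lower at the bound of the exact 95% interval, which also covers the error of the 15 reads. Cd8a, Cd8b1 and Trat1 did not reach the mean of 1 RPKM. Cd6, at 1.69 RPKM in Utx/p53 DKO and 1.46 RPKM in p53 KO, and Themis, at 0.113 and 0.132 RPKM, were low as well.

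Markers of other cell types also differed. The counts here and in the next paragraph stand beside 6.6% of all measured genes called higher and 13.5% called lower (median -0.24). NK cell markers were higher in Utx/p53 DKO for 11 of 14 measured (of 17) and lower for 2 (median 1.49), with a summed level of 955 RPKM in Utx/p53 DKO and 506 RPKM in p53 KO and none at 0. Gzmb had 28.6 RPKM in Utx/p53 DKO and 3.55 RPKM in p53 KO, Gzma had 12.7 and 2.47 RPKM, Klrk1 had 10.9 and 2.96 RPKM, and Ncr1, the most particular of the list, had 9.40 and 2.60 RPKM. The lower ones were Nkg7, a granule protein gene (99.6 RPKM in Utx/p53 DKO and 229 RPKM in p53 KO), and the receptor gene Cd244 (1.35 and 7.58 RPKM). The NK factor genes were under 1 RPKM in both libraries, with 67 reads in Utx/p53 DKO and 4 reads in p53 KO for Eomes (ratio 14.4, 95% interval 5.36 to 54.3) and 40 and 8 reads for Tbx21 (ratio 4.29, 95% interval 1.98 to 10.6). Some of the list, such as Ccl5 and Fcer1g, are used by myeloid cells too. Most of the summed NK marker level in Utx/p53 DKO came from Ccl5, Fcer1g and Tyrobp, at 232, 256 and 250 RPKM. In p53 KO they had 41.2, 81.7 and 117 RPKM. Macrophage markers were higher for 6 of 7 measured (of 9) and lower for 0 (median 1.75), with a summed level of 245 RPKM in Utx/p53 DKO and 57.9 RPKM in p53 KO and none at 0. The members that NK cells use too had ratios of 1.04 (Cd247), 0.945 (Zap70), 0.497 (Lck) and 0.284 (Lat), and Cd3d and Cd3g had 3.76 and 2.50. The part of NK cells or macrophages in the values of the members was not tested.

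Mast cell and basophil markers, whose cells use Lat, were lower for 4 of 6 measured (of 8) and higher for 0 (median -2.00, and -1.20 with no filter on low values), with a summed level of 32.8 RPKM in Utx/p53 DKO and 96.6 RPKM in p53 KO. Prss34 had 1 read in Utx/p53 DKO and 698 reads in p53 KO, Fcer1a had 0.293 and 6.73 RPKM, and Hdc had 0.253 and 6.00 RPKM. Prss34, Fcer1a and Hdc reached the mean of 1 RPKM only through the p53 KO library. The basophil protease gene Mcpt8 was about level, at 17.7 RPKM in Utx/p53 DKO and 17.2 RPKM in p53 KO, and Cpa3 had 4.46 and 14.5 RPKM. Of the megakaryocyte markers 3 of 8 were measured, and Itga2b (0.949 RPKM in Utx/p53 DKO and 7.54 RPKM in p53 KO) and Gp9 (1.11 and 8.23 RPKM) were lower. Pf4, the most abundant of them, was not, at 23.6 RPKM in Utx/p53 DKO and 19 RPKM in p53 KO (ratio 1.24, 95% interval 1.03 to 1.503). The median of the 3 was -2.13, and that of all 8 was -0.31. Their summed level was 27.5 RPKM in Utx/p53 DKO and 37.3 RPKM in p53 KO, with Gp6 at 0 in Utx/p53 DKO. Plasmacytoid and dendritic cell markers were lower for 7 of 8 measured (of 9) and higher for 1 (median -1.85), with a summed level of 175 RPKM in Utx/p53 DKO and 296 RPKM in p53 KO and none at 0; Siglech had 0.586 and 25.2 RPKM. B cell markers were lower for 7 of 8 measured (of 9) and higher for 1, Igll1 (median -2.28), with a summed level of 629 RPKM in Utx/p53 DKO, of which Igll1 gave 563 RPKM, and 508 RPKM in p53 KO and none at 0. Itga2b, Siglech, Spib, Cd209d and Ebf1 likewise reached the mean of 1 RPKM only through p53 KO. Of the T cell lists Plcg1, Cd5, Ccr7 and S1pr1, among others, did so too. Klra8, Emr1, Txk and Zbtb7b, among others, reached it only through Utx/p53 DKO. Markers of type 2 innate lymphoid cells, which depend on GATA3, were mixed (1 higher and 1 lower of 6 measured, of 10), with 23.8 RPKM summed in Utx/p53 DKO and 32.8 RPKM in p53 KO, Il13 at 0 in both and Areg at 0 in Utx/p53 DKO. The part of any of these cells in the lower values of Lat, Cd4 and Gata3 was not tested. In bulk RNA, fewer cells of a type and less RNA per cell cannot be told apart.

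**Figure D5:**
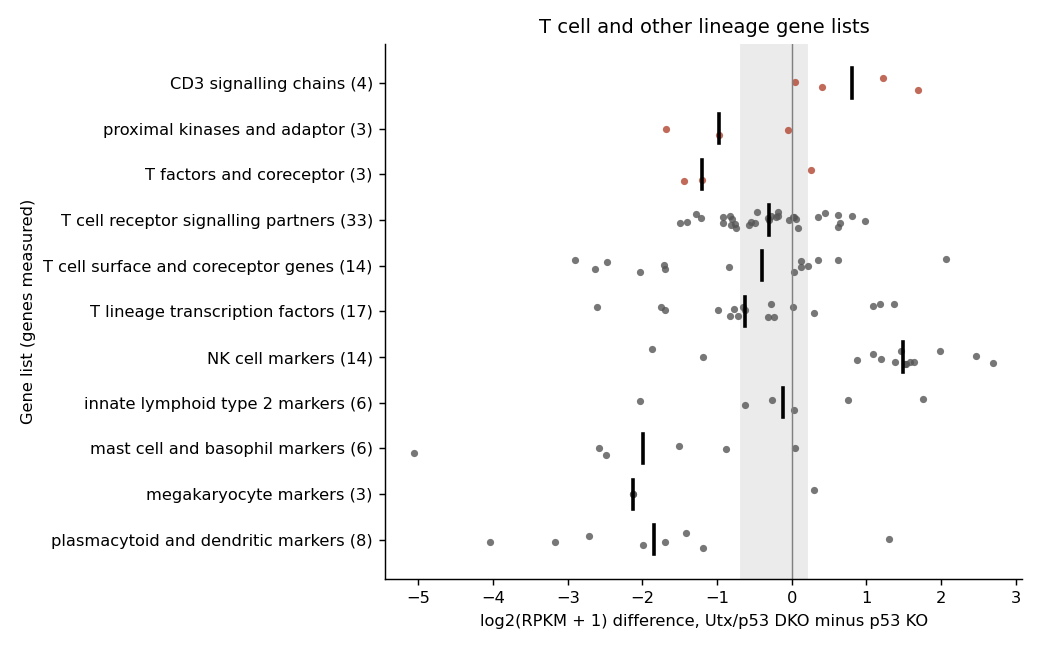
Log2(RPKM + 1) difference (Utx/p53 DKO minus p53 KO) of each measured gene by list; red points are members, black bars are list medians, numbers in brackets are genes measured, and the grey band holds the middle 50% of all measured genes. NK cell markers lie mostly to the right (median 1.49) and mast cell and dendritic markers mostly to the left, while the members lie on both sides.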

How the data were processed

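RNA of sorted LSK cells from 1 Utx/p53 DKO and 1 p53 KO library was reverse transcribed with a SMART kit after oligo-dT selection, per the labels' protocols. Build mm9, TopHat2 2.1.0 and bcl2fastq 1.8.4 are named in the submitters' processing notes. Per the file headers, gfold 1.1.4 produced the table of 28344 transcripts. For each of these, the authors deposited RPKM values, a log2 fold change, the GFOLD value (log2) and an empirical FDR (a q-value). The headers list WT-LSK (p53 KO) first and KO-LSK (Utx/p53 DKO) second, with normalization constants of 1.30144 and 1, and columns were assigned by those names. Strandedness and the handling of multiply mapped reads are not given in the sources used here.

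Differences were taken on log2(RPKM + 1), Utx/p53 DKO minus p53 KO, over symbols averaging 1 RPKM or more. That scale shrinks the change of low genes. A difference of at least 2-fold counted as higher or lower. Whole reads were recovered as the 1 transcript length at which both RPKM values gave whole reads and matched the authors' log2 fold change, which succeeded for all 10 members and for 90.2% of the listed genes with reads. The recovery was tested on simulated data. They gave exact (Clopper-Pearson) 95% intervals of RPKM ratios, conditional exact intervals for ratios between genes, and Poisson intervals of levels (scipy 1.17.1). PCR reads without molecular identifiers are not independent molecules. The members and gene lists were chosen with earlier results of these data known. Named were all members, Kdm6a, Trp53, the sort genes, up to 6 genes per list with the largest differences, and markers under 1 RPKM in both. Lcp2, Bcl11b, Nkg7, Cd6, Cd8a, Cd5, Ncr1, Trat1 and the neighbouring genes were named after their values were seen. Alternatives were other pseudocounts, filters, scalings, size rules and the mean over transcripts. Syk and Ly6g were not analysed here.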

Additional observations from a re-analysis of the deposited data

How the results depend on the processing

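Against 2 members higher and 3 lower on the RPKM scale, 1 was higher and 1 lower with a pseudocount of 5 and likewise with a size rule of 3-fold. With equal RPKM totals 1 was higher and 4 were lower. Lck joined the lower members there, with a pseudocount of 0.1 and with a size rule of 1.5-fold, each giving 4 lower. Under the gfold constants or centring on the all-gene median 2 were lower. With a mean of at least 5 RPKM 5 members were left and 1 was lower. The member median of 0.0001 became 0.40 with that filter, 0.45 with the gfold constants, -0.25 with equal totals, 0.11 with upper-quartile scaling and 0.24 with centring on the all-gene median. Of all 11356 measured genes, 750 (6.6%) were higher and 1528 (13.5%) lower. The higher count was 905 and 426 with pseudocounts of 0.1 and 5, and 532 with a mean of at least 5 RPKM. It was 1873 with the constants, 498 with equal totals, 1094 after centring, 1481 at 1.5-fold and 369 at 3-fold. The lower count was 2125 and 476 with pseudocounts of 0.1 and 5, and 835 with a mean of at least 5 RPKM. It was 712 with the constants, 2709 with equal totals, 995 after centring, 3363 at 1.5-fold and 493 at 3-fold. The filter at 5 RPKM also left fewer genes to count. Scalings moved the all-gene median by 0.52 (constants), -0.31 (equal totals), 0.13 (upper quartile) and 0.24 (centring). The median of the megakaryocyte markers was -2.13 and became 0.30 with a mean of at least 5 RPKM, where fewer genes were left. Other causes were not tested. No paired analysis was possible because each group has 1 library, which also bars leaving one out. Depth limits Cd4 most, with 12 reads in Utx/p53 DKO.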
